A study of Mus musculus with 12 samples.

Results

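The actin filament end-capping proteins and tropomodulins were followed in C2C12 cells, a mouse myoblast line that fuses into myotubes when serum is lowered. The set holds 10 genes taken by name: Capza1, Capza2, Capzb, Capg, Tmod1, Tmod2, Tmod3, Twf1, Twf2 and Gsn. All 10 were found among the 25774 genes matched in the deposited data. Of these, 9 were among the 13076 genes tested, and Tmod2 was too low to be tested. The set was drawn up because Capza1 and Tmod1 had been seen to fall after Kctd10 knockdown, so for those 2 genes the difference between siKctd10 and siControl is given as a description, with no test.

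The 4 groups of 3 libraries each were siKctd10 at D2, siControl at D2, siKctd10 at D0 and siControl at D0. siKctd10 cells had received 1 siRNA against Kctd10, which encodes a substrate adaptor of the cullin-3 ubiquitin ligase, and siControl cells had received a non-targeting siRNA. D0 cells were undifferentiated, subconfluent myoblasts harvested 48 h after siRNA in medium with 10% fetal bovine serum. D2 cells spent 24 h with siRNA in growth medium, then moved to 2% horse serum, and were harvested 48 h after that switch, so siRNA exposure was longer at D2 than at D0. Whether the 3 libraries of a group were separate cultures is not in the labels, so a p-value here is set against the spread of these libraries alone, and that spread may be technical. No second siRNA against Kctd10 was analysed here, so an effect of losing Kctd10 and an effect of this siRNA on other transcripts cannot be told apart.

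Actin filaments have a fast-growing barbed end and a slow pointed end, and proteins that cover these ends set filament length. Capping protein is a heterodimer of an α subunit (Capza1 or Capza2) and the β subunit (Capzb); it covers barbed ends in all cells and, as CapZ, anchors them in the Z-disc of the sarcomere. Tropomodulins cover pointed ends, where they bind tropomyosin, and in striated muscle they act at the free end of the thin filament. Twinfilins bind capping protein and actin monomers. Gelsolin (Gsn) severs filaments in a calcium-dependent way and then stays on the barbed end, and CapG caps barbed ends without severing.

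The sequences that define the perturbation are the 19-base strands of the siRNAs, shown with bases 2 to 8, the seed, in capitals. The sense strands are as the series gives them; the antisense strand, which pairs with the Kctd10 mRNA, was derived as its reverse complement.
siKctd10 antisense strand: uUAUCGUCagaauugcugg
siKctd10 sense strand: cCAGCAAUucugacgauaa
siControl strand: uGGUUUACauguuuucuga
The siKctd10 site in the Kctd10 transcript runs across the junction of exons 5 and 6, within chr5:114367387-114368348 on the minus strand (GRCm38, GENCODE), and the capitals mark the match to the antisense seed.
Kctd10 site: acaccagcaattctGACGATAAcat

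Kctd10 fell to 32.0 ± 4.58 TPM in siKctd10 cells at D2, against 283 ± 6.77 TPM in siControl cells at D2 (SD, n = 3), which left 11.3%. At D0 it had 23.1 ± 2.69 TPM in siKctd10 cells and 266 ± 7.32 TPM in siControl cells, which left 8.66%. TPM, transcripts per 1000000, is a level per transcript length and relative to all transcripts of a library. Estimated depth ran between 12510887 and 18082111 assigned read pairs per library. The myoblast markers Myod1, Myf5, Pax7, Des and Cdh15 were present in all libraries, and most markers of other lineages were under 1 TPM or at 0. Of 5 markers each, 4 adipocyte, 2 osteoblast, 2 leukocyte, 2 endothelial and 2 neural markers were at 0 in all 12 libraries, Adipoq, Bglap, Ptprc, Kdr and Snap25 among them. The others that passed the filter were Cebpa (10.5 to 26.0 TPM), Dmp1 (1.56 to 4.24 TPM) and Cd68 (0.786 to 2.32 TPM), and Tek reached 1.51 TPM. In bulk RNA, fewer cells expressing a gene and less RNA per cell cannot be told apart.

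**Figure D1:**
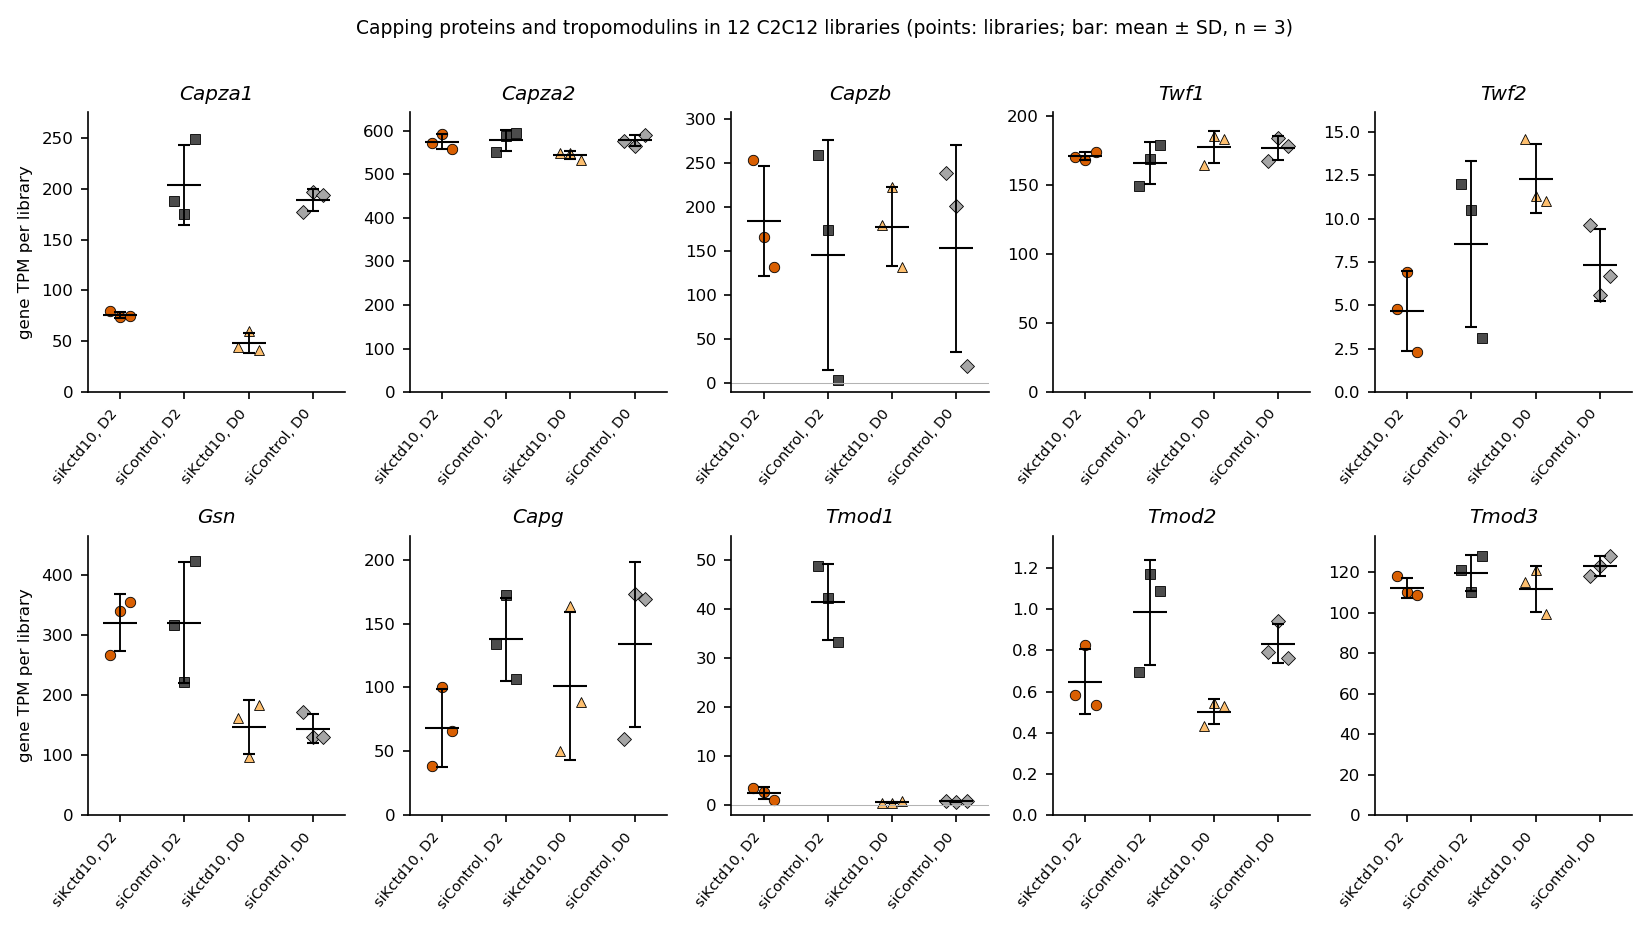
TPM of each of the 10 genes in each of the 12 libraries (points), by group along the x axis, with the mean and SD of 3 libraries as bars; each y axis is linear and starts at or just under 0. Capza1 lies between 41.6 and 79.3 TPM in the 6 siKctd10 libraries and between 175 and 249 TPM in the 6 siControl libraries, and Tmod1 is above 30 TPM only in the 3 siControl libraries at D2.

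Capza1, the α1 subunit of capping protein, was the only barbed-end capper of the set whose siKctd10 and siControl libraries did not overlap at both days; 9.91% of all genes were lower without overlap at D2 and 8.78% at D0. At D2 it had 79.3, 73.7 and 74.5 TPM in siKctd10 libraries, against 188, 175 and 249 TPM in siControl libraries. At D0 it had 43.9, 60.0 and 41.6 TPM in siKctd10 libraries, against 177, 197 and 194 TPM in siControl libraries. The lowest siControl library was 2.21 times the highest siKctd10 library at D2 and 2.95 times at D0.

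As means, Capza1 was at 75.8 ± 3.05 TPM in siKctd10 cells and 204 ± 39.4 TPM in siControl cells at D2, so 37.2% was left. At D0 it was at 48.5 ± 10.0 TPM in siKctd10 cells and 189 ± 10.8 TPM in siControl cells, so 25.6% was left. The log2 fold changes on the log2(TPM + 1) scale were -1.40 at D2 and -1.96 at D0. These are the values for which the gene was chosen, and they carry no test; over all genes tested, the median log2 fold change was 0.08 at D2 and 0.05 at D0 (limma fit, siKctd10 over siControl).

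With differentiation, Capza1 in siKctd10 cells rose 1.56-fold in mean TPM (0.65 on the log2 scale, D2 over D0). The 3 libraries at D2 were all above the 3 at D0, with no overlap in 48.4% of all genes. The median log2 fold change of all genes in that comparison was 0.12. The siKctd10 libraries of that comparison are among those the gene was chosen on, so this value carries no test. In siControl cells the log2 fold change was 0.09, with overlapping libraries. The siControl libraries entered the same choice, so this value carries no test either. The difference between the 2 knockdown effects was 0.56 on the log2 scale, given without a test.

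Capza1 lies at chr3:104822779-104864505 on the minus strand (GRCm38) and was deposited as 1 transcript of 10 exons. Of its covered bases, 97.5 to 100% per library fell in the last exon, which is 2340 bases long and holds the 3′ UTR. Coverage of that exon per 1000000 read pairs was 8.31, 7.51 and 7.72 in siKctd10 libraries at D2, against 21.2, 18.8 and 26.9 in siControl libraries at D2. At D0 it was 4.99, 6.71 and 4.48 in siKctd10 libraries, against 21.2, 23.1 and 22.1 in siControl libraries. Since that exon carries nearly all the coverage, these values restate the gene's TPM and are no second measurement.

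The Capza1 sequence is not unique in the genome. Of the 50-base windows of its longest 3′ UTR transcript, 73.8% also occur, letter for letter, in another annotated gene, nearly all in the pseudogene Gm3608 at chr1:105455971-105458829. No deposited transcript lies on the same strand at that pseudogene or at the shorter copies Gm5920 and AC109149.1, so reads from a copy, and reads of Capza1 placed on a copy, are not seen separately. How reads with several places were assigned is not given in the sources used here, and the share of such reads in the Capza1 values was not tested.

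Capza2, the α2 subunit, was the most abundant gene of the set and varied least. It had 571, 593 and 559 TPM in siKctd10 libraries at D2, against 551, 588 and 596 TPM in siControl libraries. At D0 it had 550, 549 and 533 TPM in siKctd10 libraries, against 577, 565 and 591 TPM in siControl libraries. The log2 fold change was -0.01 at D2 (95% interval -0.13 to 0.11, limma adjusted p = 0.952) and -0.09 at D0 (95% interval -0.21 to 0.04, limma adjusted p = 0.467). The D0 libraries did not overlap, as was the case for 23.2% of all genes. Its SD between replicates was 0.042 on the log2 scale, against a median of 0.244 over all genes, so the intervals are narrow. Between the days, Capza2 had a log2 fold change of 0.08 in siKctd10 cells (95% interval -0.04 to 0.20) and 0.00 in siControl cells (95% interval -0.12 to 0.12); with median-ratio scaling these were -0.05 and -0.09, so no direction can be given.

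The TPM of the 2 α subunits is per transcript length, but reads lost to or gained from the Capza1 copies and exons listed at 0 may affect the subunits unequally, so the levels are given without a ratio. In siKctd10 cells Capza2 had 574 ± 17.1 TPM at D2 and 544 ± 9.51 TPM at D0, and Capza1 had 75.8 ± 3.05 and 48.5 ± 10.0 TPM. In siControl cells Capza2 had 578 ± 24.1 TPM at D2 and 578 ± 12.9 TPM at D0, and Capza1 had 204 ± 39.4 and 189 ± 10.8 TPM. Capza1 was the lower of the pair in every library. The longest run of bases shared by the 2 transcripts was 26, and no 50-base window of Capza2 occurs in another gene.

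Capzb, the β subunit shared by both dimers, could not be measured well in these files. It had 253, 166 and 132 TPM in siKctd10 libraries at D2, against 259, 174 and 3.23 TPM in siControl libraries. Its D0 levels were 179, 222 and 132 TPM in siKctd10 libraries, against 239, 201 and 19.1 TPM in siControl libraries. The third siControl library of each day stood far below the others. In those 2 libraries the coverage of the last exon, 818 bases long, was 0.57 at D2 and 0.65 at D0, while the other 10 libraries had 327 to 598. The first replicates of 3 groups also carried 88.7 to 105 TPM of a 271-base transcript that was at 0 in every other library.

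The resulting Capzb log2 fold changes were 1.62 at D2 (95% interval -1.72 to 4.96, limma adjusted p = 0.588) and 0.82 at D0 (95% interval -2.52 to 4.16, limma adjusted p = 0.837). An interval that wide contains changes of the size seen for Capza1 in either direction. Without the third siControl library, the log2 fold change was -0.26 at D2 and -0.33 at D0 (limma adjusted p of 0.924 and 0.955). The cause of the missing coverage was not tested.

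**Figure D2:**
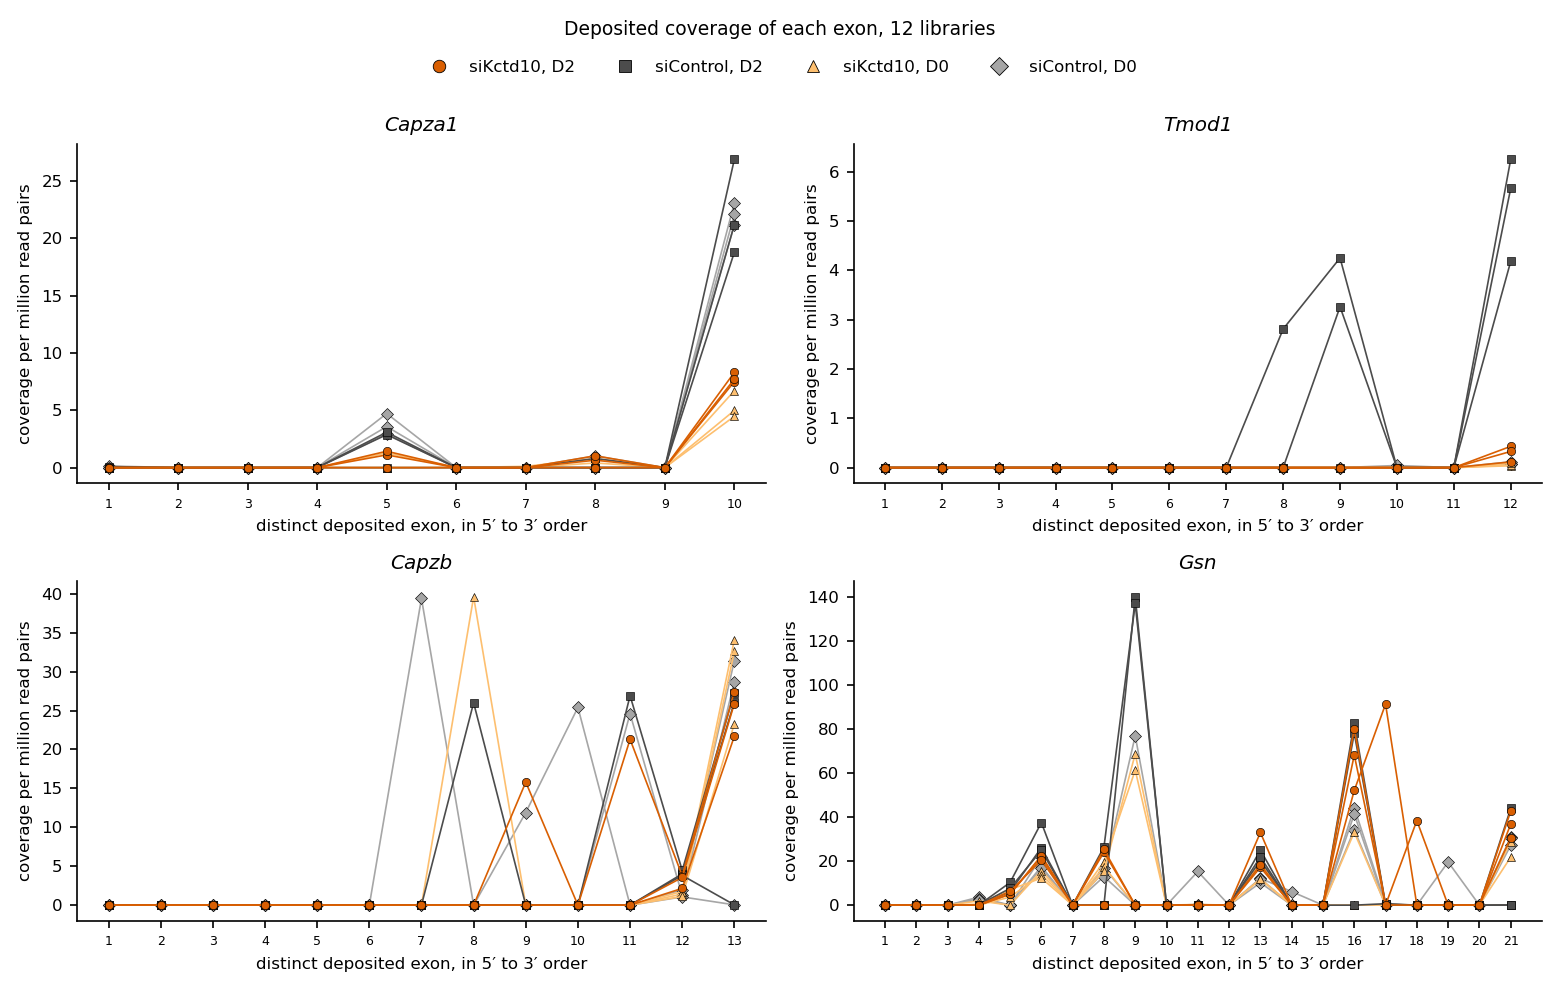
Coverage per 1000000 read pairs (y axis, linear) of each distinct deposited exon in 5′ to 3′ order (x axis) for Capza1, Tmod1, Capzb and Gsn, 1 line for each of the 12 libraries, coloured by group. Most exons of Capza1 and Tmod1 lie at 0 and the last exon carries the signal, while for Capzb and Gsn the covered exons change from library to library within a group.

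This pattern of exons was not particular to the set. In 1166 genes with a single deposited transcript, at least 3 exons and at least 20 TPM in every library, exons of up to 100 bases were listed at 0 in 81.8% of values and exons over 100 and up to 200 bases in 63.8%. Exons over 200 and up to 300 bases were at 0 in 8.61%, those over 300 and up to 500 bases in 1.66% and those over 500 bases in 0.189%. The deposited coverage therefore rests mainly on longer exons. Of the 10 genes, Tmod3 had coverage in all of its exons in all libraries, and Capg has no exon over 229 bases.

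**Figure D3:**
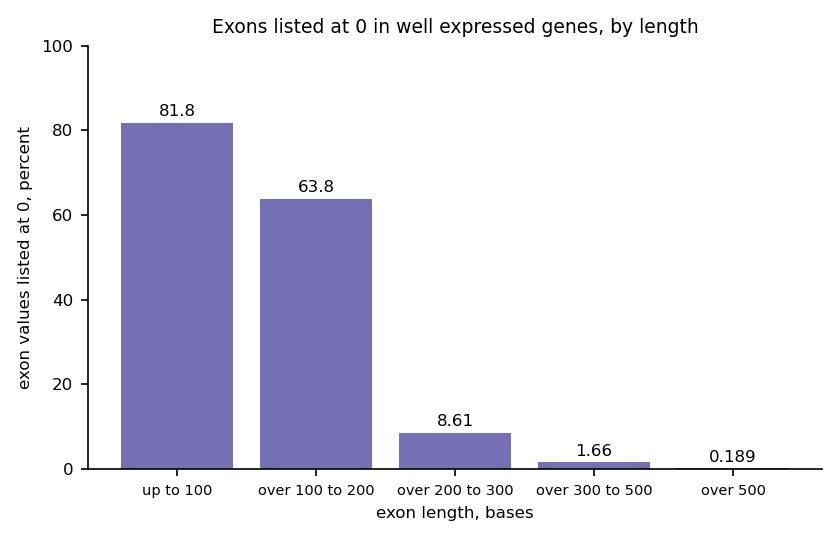
Percent of exon values listed at 0 (y axis, from 0) by exon length in bases (x axis), over 12 libraries and 1166 single-transcript genes with at least 20 TPM in every library. The bars fall from 81.8% for exons of up to 100 bases to 0.189% for exons over 500 bases.

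Twinfilin 1 (Twf1), the widely expressed twinfilin, had 170, 168 and 174 TPM in siKctd10 libraries at D2, against 149, 169 and 179 TPM in siControl libraries. The values at D0 were 164, 185 and 183 TPM in siKctd10 libraries, against 167, 184 and 178 TPM in siControl libraries. The groups overlapped on both days. The log2 fold change was 0.05 at D2 (95% interval -0.14 to 0.24, limma adjusted p = 0.804) and 0.01 at D0 (95% interval -0.18 to 0.20, limma adjusted p = 0.976). Neither interval reaches further than 0.24 from 0. With median-ratio scaling of the libraries the D2 value was -0.04, so it has no settled direction.

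Twinfilin 2 (Twf2), a paralog known from heart and skeletal muscle, was low throughout. It had 4.78, 6.90 and 2.31 TPM in siKctd10 libraries at D2, against 12, 10.5 and 3.09 TPM in siControl libraries. Its D0 levels were 14.6, 11.3 and 11 TPM in siKctd10 libraries, against 9.62, 5.61 and 6.68 TPM in siControl libraries. The D0 libraries did not overlap, the D2 libraries did, and neither difference passed the test (limma adjusted p = 0.492 at D0 and 0.460 at D2). These levels rest on 21.5 to 136 estimated read pairs per library.

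In siKctd10 cells Twf2 fell between the days, to 4.66 ± 2.29 TPM at D2, against 12.3 ± 2.03 TPM at D0, with no overlap (log2 fold change -1.31, SE 0.45, limma adjusted p = 0.0458). In that comparison 13.3% of all genes were called lower and 18.1% were lower without overlap. The call was lost when any of 5 of the 6 libraries was left out in turn, with limma adjusted p of 0.0783 to 0.148. In siControl cells the log2 fold change was 0.06 (95% interval -0.98 to 1.1, limma adjusted p = 0.938). The difference between the 2 changes was -1.37 (95% interval -2.84 to 0.10, limma adjusted p = 0.520).

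Gelsolin had 266, 340 and 355 TPM in siKctd10 libraries at D2, against 316, 222 and 422 TPM in siControl libraries. At D0 it had 161, 97.5 and 184 TPM in siKctd10 libraries, against 172, 130 and 130 TPM in siControl libraries. The groups overlapped on both days, with log2 fold changes of 0.04 at D2 (95% interval -0.61 to 0.68, limma adjusted p = 0.966) and -0.01 at D0 (95% interval -0.65 to 0.64, limma adjusted p = 0.997).

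By the sum over its transcripts, gelsolin rose with differentiation. In siKctd10 cells it was at 320 ± 47.6 TPM at D2, against 148 ± 44.9 TPM at D0 (log2 fold change 1.15, SE 0.28, limma adjusted p = 0.00945). In siControl cells it was at 320 ± 100 TPM at D2, against 144 ± 24.3 TPM at D0 (log2 fold change 1.11, SE 0.28, limma adjusted p = 0.0117). In the siControl comparison 35.5% of all genes were called, 21.4% higher.

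The rise depended on how reads were split between the deposited transcripts. A 515-base deposited transcript (uc008jkf.1), matched to the gene by overlap, had 117 to 196 TPM in the 6 libraries at D2, was at 0 in 4 of the 6 D0 libraries and had 72.7 and 62.2 TPM in the others. The 2663-base transcript (uc008jkg.2) had 146, 217 and 238 TPM in siKctd10 libraries at D2, against 161, 24.8 and 122 TPM at D0. In siControl libraries it had 120, 84.4 and 289 TPM at D2, against 172, 130 and 130 TPM at D0. With transcripts matched by identical introns only, the siControl log2 fold change was 0.00 (limma adjusted p = 0.999), and with voom on estimated read pairs it was 0.21 (limma adjusted p = 0.788). In siKctd10 cells these 2 settings gave 1.3 and 1.16, neither past the threshold (limma adjusted p of 0.161 and 0.111). The coverage of the longest exon alone gave 2.75 in siKctd10 cells and -4.27 in siControl cells (limma adjusted p of 0.394 and 0.182).

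Of the 21 distinct Gsn exons, 5 had coverage above 0 in all libraries, and they did not move alike between the days. The 205-base exon had 22.1, 22.5 and 20.5 per 1000000 read pairs in siKctd10 libraries at D2, against 15.6, 13.9 and 12.3 at D0. In siControl libraries it had 37.5, 26.1 and 24.9 at D2, against 17.6, 21.9 and 16.8 at D0. The 216-base exon had 17.2, 18.3 and 33.0 in siKctd10 libraries at D2, against 11.9, 11.7 and 19.2 at D0. In siControl libraries it had 25.0, 20.3 and 21.9 at D2, against 10.2, 12.2 and 12 at D0. Both of these exons were higher at D2 in each siRNA arm, without overlap except for the 216-base exon in siKctd10 cells. The 222-base exon had 0.0238 to 0.0455 in siKctd10 libraries at D2, against 0.0152 to 1.95 at D0, with overlap. In siControl libraries it was lower at D2 without overlap, with 0.0108 to 0.0777 at D2, against 2.52 to 3.65 at D0. The last exon, of 406 bases, had 36.8, 42.7 and 30.5 in siKctd10 libraries at D2, against 28.8, 0.0484 and 21.8 at D0. In siControl libraries it had 0.0949, 0.075 and 43.9 at D2, against 30.9, 30.4 and 27.2 at D0. The 175-base exon was at 0.654 or less in 11 libraries and at 91.3 in the third siKctd10 library at D2. The exon coverage therefore gives no single direction for the gene, and it carries no test.

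Capg, the non-severing relative of gelsolin, had 38.8, 100 and 65.7 TPM in siKctd10 libraries at D2, against 134, 172 and 107 TPM in siControl libraries. Its D0 levels were 50.1, 164 and 88.9 TPM in siKctd10 libraries, against 59.4, 173 and 169 TPM in siControl libraries. The D2 libraries did not overlap, as held for 28.4% of all genes, and the D0 libraries did. The log2 fold change was -1.08 at D2 (95% interval -2.31 to 0.16, limma adjusted p = 0.313) and -0.42 at D0 (95% interval -1.65 to 0.82, limma adjusted p = 0.758). The coverage of its longest exon alone gave 0.22 at D2 and -0.38 at D0. That exon, of 229 bases, held 0.0 to 1.5% of the gene's covered bases per library, so these values are near the floor and give no direction. Its reads were divided between uc009cit.2 and uc033ism.1, and the second was at 0 in 3 libraries and held the larger part of the gene in others.

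Tmod1, the tropomodulin of striated muscle and erythrocytes, separated the groups at D2. It had 3.31, 2.59 and 0.909 TPM in siKctd10 libraries at D2, against 48.9, 42.4 and 33.3 TPM in siControl libraries. At D0 it had 0.271, 0.366 and 0.635 TPM in siKctd10 libraries, against 0.793, 0.505 and 0.685 TPM in siControl libraries. At D2 the lowest siControl library was 10.1 times the highest siKctd10 library, and the D0 libraries overlapped at a level under 1 TPM.

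As means, Tmod1 was at 2.27 ± 1.23 TPM in siKctd10 cells and 41.5 ± 7.83 TPM in siControl cells at D2, so 5.46% was left. The log2 fold change was -3.77 at D2 and -0.23 at D0, a difference of -3.54 between the days. These values chose the gene and carry no test. The estimated read pairs were 53.7, 50.5 and 15.2 in siKctd10 libraries at D2, against 822, 603 and 558 in siControl libraries. At D0 they were 4.56 to 10.9 in siKctd10 libraries and 8.40 to 14.3 in siControl libraries, too few for a difference between the D0 groups to be read.

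Between the days, the mean TPM of Tmod1 was 5.35-fold higher at D2 in siKctd10 cells and 62.8-fold higher in siControl cells, with log2 fold changes of 1.13 and 4.67 on the log2(TPM + 1) scale. In both arms the 3 libraries at D2 were above the 3 at D0; in siControl cells 52.3% of all genes did not overlap between the days. Tmod1 reached 1 TPM in 5 libraries, all at D2, so it entered the fit through the day on which it is high, and these values carry no test. The D2 libraries of both comparisons also entered the difference for which Tmod1 was chosen.

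Tmod1 lies at chr4:46038935-46116032 on the plus strand (GRCm38), and nearly all of its covered bases, 90.6 to 100% per library, fell in its last exon of 1719 bases. Coverage of that exon per 1000000 read pairs was 0.43, 0.33 and 0.12 in siKctd10 libraries at D2, against 6.25, 5.66 and 4.18 in siControl libraries. At D0 the 6 libraries had 0.038 to 0.118. Of its 50-base windows, 3.57% occur in another gene, and its longest run shared with Tmod3 was 17 bases and with Tmod2 23 bases.

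Some markers of muscle differentiation were also lower in siKctd10 cells at D2. The 7 markers of differentiating myocytes (Myog, Mymk, Mymx, Myh3, Mylpf, Actc1 and Ckm) all rose in siControl cells with differentiation, where 21.4% of all genes were called higher. In the D0 libraries Mymx was at 1.52 TPM or less and Ckm at 0.584 TPM or less. These 2 passed the filter through D2, so their rise carries no test. At D2, 3 of the 7 were called lower in siKctd10 cells and none higher: Myog (log2 fold change -0.75, limma adjusted p = 0.0160), Mymk (-0.92, 0.0122) and Actc1 (-0.76, 0.0189), where 1.92% of all genes were called lower. Leaving out 1 library at a time ended the call of Myog in 4 of the 6 cases, with limma adjusted p of 0.0521 to 0.0647, and that of Actc1 in 5, with 0.0501 to 0.0688. The others were not called: Mymx (-0.63, limma adjusted p = 0.226), Myh3 (-0.08, 0.954), Mylpf (-0.86, 0.623) and Ckm (-0.88, 0.0601). Myh3 had 199, 234 and 612 TPM in siKctd10 libraries at D2, against 332, 340 and 299 TPM in siControl libraries. The summed level of the 7 was 1826 to 2176 TPM in siKctd10 libraries at D2, against 3241 to 3276 TPM in siControl libraries, and Mylpf and Actc1 made up most of it. Of the 5 myoblast markers, 2 were called lower in siKctd10 cells at D2: Myod1 (log2 fold change -0.37, limma adjusted p = 0.00909) and Myf5 (-0.57, 0.00502). Both calls were lost when only the D2 groups were fitted (limma adjusted p of 0.0709 and 0.0506). Pax7 (-0.055, limma adjusted p = 0.895), Des (-0.284, 0.421) and Cdh15 (-0.127, 0.642) were not called. The 5 called marker values lay between -0.92 and -0.37, beside -3.77 for Tmod1, and their part in the Tmod1 difference was not tested. Of 5 adipocyte markers, 4 (Adipoq, Plin1, Fabp4 and Cidec) were at 0 in all libraries, and the other, Cebpa, was called higher in siKctd10 cells at D2, with 23.7 to 26.0 TPM against 10.5 to 13.6 TPM in siControl libraries (log2 fold change 1.03, limma adjusted p = 0.00341).

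**Figure D4:**
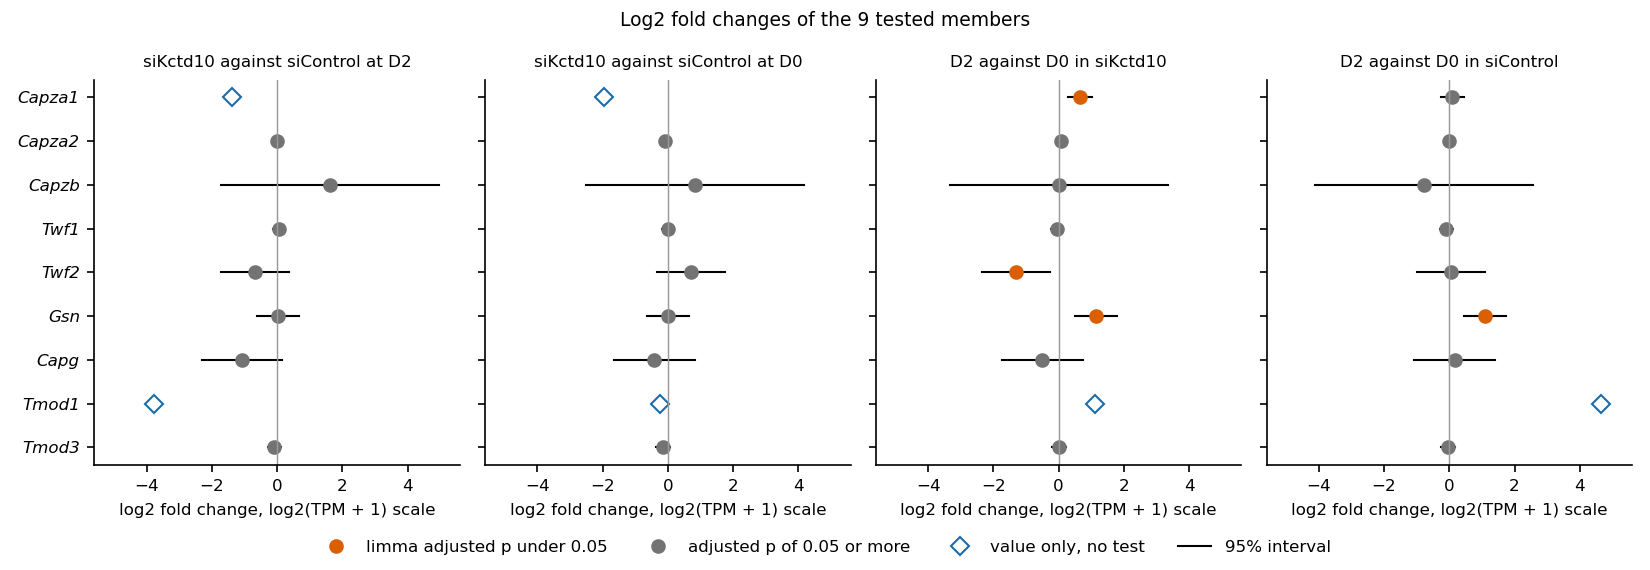
Log2 fold changes on the log2(TPM + 1) scale (x axis) of the 9 tested genes (y axis) in 4 comparisons, with 95% intervals; open diamonds are the values for which Capza1 and Tmod1 were chosen, and Tmod1 between the days, drawn without an interval. No other gene is called between siKctd10 and siControl, and Tmod1 has the largest rise between the days, 4.67 in siControl cells. The intervals and colours drawn for Capza1 between the days, in siKctd10 and in siControl cells, rest on libraries it was chosen on and are not read as tests.

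Tmod3, the ubiquitous tropomodulin, had 118, 110 and 109 TPM in siKctd10 libraries at D2, against 121, 110 and 128 TPM in siControl libraries. Its D0 levels were 115, 121 and 99.3 TPM in siKctd10 libraries, against 118, 123 and 128 TPM in siControl libraries. The groups overlapped on both days. The log2 fold change was -0.09 at D2 (95% interval -0.30 to 0.12, limma adjusted p = 0.641) and -0.14 at D0 (95% interval -0.35 to 0.06, limma adjusted p = 0.481). Tmod2, the neuronal tropomodulin, was between 0.433 and 1.17 TPM in all libraries and reached 1 TPM in 2 of them, both siControl at D2.

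Among Tmod1, Tmod2 and Tmod3, the order of the means on the TPM scale was Tmod3, Tmod1 and Tmod2 in the D2 groups. In siKctd10 cells at D2, Tmod3 had 112 ± 4.70 TPM, Tmod1 2.27 ± 1.23 TPM and Tmod2 0.65 ± 0.16 TPM. In siControl cells at D2, Tmod3 had 120 ± 9.01 TPM, Tmod1 41.5 ± 7.83 TPM and Tmod2 0.98 ± 0.25 TPM. Tmod4, which is not in the set, had 1.56 ± 0.80 TPM in siKctd10 cells at D2, where its libraries overlapped those of Tmod1. In siControl cells at D2 it had 0.82 ± 0.38 TPM. At D0 Tmod1 and Tmod2 were both under 1 TPM and their libraries overlapped in both D0 groups.

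Of the 7 tested genes not chosen on their knockdown response (Capza2, Capzb, Capg, Tmod3, Twf1, Twf2 and Gsn), none was called between siKctd10 and siControl at D2 or at D0 by limma, none had an unadjusted p under 0.05, and none was called with voom. Over all genes, 4.75% were called at D2 and 2.45% at D0, so 0 of 7 is near that background. None of the 7 had a called difference between the days' effects by limma or voom, or an unadjusted p under 0.05, where 0.742% of all genes were called. With differentiation, 2 of the 7 were called in siKctd10 cells (Gsn higher, Twf2 lower) and 1 in siControl cells (Gsn higher), against 36.4% and 35.5% of all genes. With voom, 1 was called in siKctd10 cells (Twf2) and none in siControl cells.

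The siKctd10 sequence was searched in the transcripts of the set. For each gene only the annotated transcript with the longest 3′ UTR was searched. For Twf2 that transcript has 839 bases, while the deposited ones have 1508 and 1594. The match to bases 2 to 7 of the antisense strand, acgata, occurs in none of the 10 transcripts searched, in the 3′ UTR or elsewhere. It occurs in the 3′ UTR of 4.61% of expressed genes, and anywhere in the longest transcript of 11.59%. Among the 41 genes whose 3′ UTR holds the 8-base match gacgataa (the match to the seed followed by an A), 5 (12.2%) were called lower in siKctd10 cells at D2 and 7 (17.1%) at D0. Over all 11981 genes with a 3′ UTR, 2.00% and 1.03% were, and over all genes tested 1.92% and 0.964%. Capza1 and Tmod1 are not among those 41 genes.

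The sense strand has an 8-base match, attgctga, in the 3′ UTR of Capza1, Tmod2, Tmod3 and Twf1, once each, and of 3.86% of expressed genes. The windows below show the site in the 3 tested genes with the match in capitals, at chr3:104824561-104824585, chr9:75499773-75499797 and chr15:94578114-94578138, all on the minus strand in the last exon.
Capza1: ttagtgatccaccaATTGCTGAaga
Tmod3: aaatcaaaagggacATTGCTGActc
Twf1: cgattaaaccaatgATTGCTGAgaa
Over the 19 bases of the strand, 9 pair in Capza1, 9 in Tmod3 and 11 in Twf1. Tmod3 and Twf1 hold the same 8 bases and were not called lower on either day. Tmod2, with the same match, was too low to be tested. At D0 it had 0.433, 0.546 and 0.530 TPM in siKctd10 libraries, against 0.792, 0.941 and 0.765 TPM in siControl libraries, and at D2 its libraries overlapped. Any part of this match in the Capza1 difference was not tested. Among the 463 genes with this match in the 3′ UTR, 2.59% were called lower at D2 and 0.648% at D0, with median log2 fold changes of 0.12 and 0.10. Tmod1 has no such match in its 3′ UTR.

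The pointed-end partners of the tropomodulins were read from a list of 9 genes (Tmod4, Lmod1 to Lmod3, Tpm1 to Tpm4 and Neb), all measured. With differentiation, Lmod2, Lmod3 and Neb were higher in siKctd10 cells, with log2 fold changes of 4.12, 3.21 and 3.09. These 3 genes were at 1.13 TPM or less in every D0 library, so they passed the filter through D2. Their values between the days therefore carry no test in either arm. None of the other genes of the list was called in siKctd10 cells, where 23.1% of all genes were called higher. In siControl cells the same 3 genes were higher at D2, and Tpm2 was the only other gene called. Leiomodin 2 (Lmod2), which nucleates actin and lengthens thin filaments, had 29.8 ± 3.43 TPM in siControl cells at D2, against 0.38 ± 0.27 TPM at D0 (log2 fold change 4.50). Leiomodin 3 (Lmod3) had 22.9 ± 2.62 TPM at D2, against 0.41 ± 0.51 TPM at D0 (4.14). Nebulin (Neb), the large thin-filament protein that binds Tmod1, had 8.94 ± 0.60 TPM at D2, against 0.23 ± 0.02 TPM at D0 (3.01). β-tropomyosin (Tpm2) rose in siControl cells (log2 fold change 1.28, limma adjusted p = 0.0108), where 21.4% of all genes were called higher. From the longest exon of Neb alone, the value in siControl cells was -0.12.

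Between siKctd10 and siControl, 1 of the 9 pointed-end partners was called on each day, and it was higher, where 2.83% of all genes were called higher at D2 and 1.48% at D0. Tpm1, α-tropomyosin, had 968 ± 120 TPM in siKctd10 cells at D2, against 591 ± 68.5 TPM in siControl cells (0.71 on the log2 scale, SE 0.12, limma adjusted p = 0.0101). The values at D0 were 823 ± 65.3 TPM in siKctd10 cells, against 547 ± 52.6 TPM in siControl cells (0.59, SE 0.12, limma adjusted p = 0.0354). The D0 call of Tpm1 was lost when any 1 of the 6 libraries was left out, with limma adjusted p of 0.0667 to 0.130, with median-ratio scaling (0.0544), with voom (0.0556) and when only the D0 groups were fitted (0.108). The D2 call was lost when only the D2 groups were fitted (0.0659). Tpm2 and Lmod1 had 1.29 and 0.97 at D0 (limma adjusted p of 0.0735 and 0.150), and Tpm3 had 1.53 at D2 (0.344). The Tpm3 value rests on 1 library, with 20.6, 20.2 and 277 TPM in siKctd10 libraries, against 16.9, 18.7 and 13.8 TPM in siControl libraries. Lmod2 had 25.1 ± 10.2 TPM in siKctd10 cells at D2, against 29.8 ± 3.43 TPM in siControl cells (-0.30, limma adjusted p = 0.643). Lmod3 had 12.6 ± 1.48 TPM in siKctd10 cells and 22.9 ± 2.62 TPM in siControl cells at D2 (log2 fold change -0.82, limma adjusted p = 0.0950). Nebulin had 9.36 ± 1.31 TPM in siKctd10 cells and 8.94 ± 0.60 TPM in siControl cells at D2 (0.05, limma adjusted p = 0.861). In the same libraries Tmod1 had 2.27 ± 1.23 TPM in siKctd10 cells and 41.5 ± 7.83 TPM in siControl cells.

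**Figure D5:**
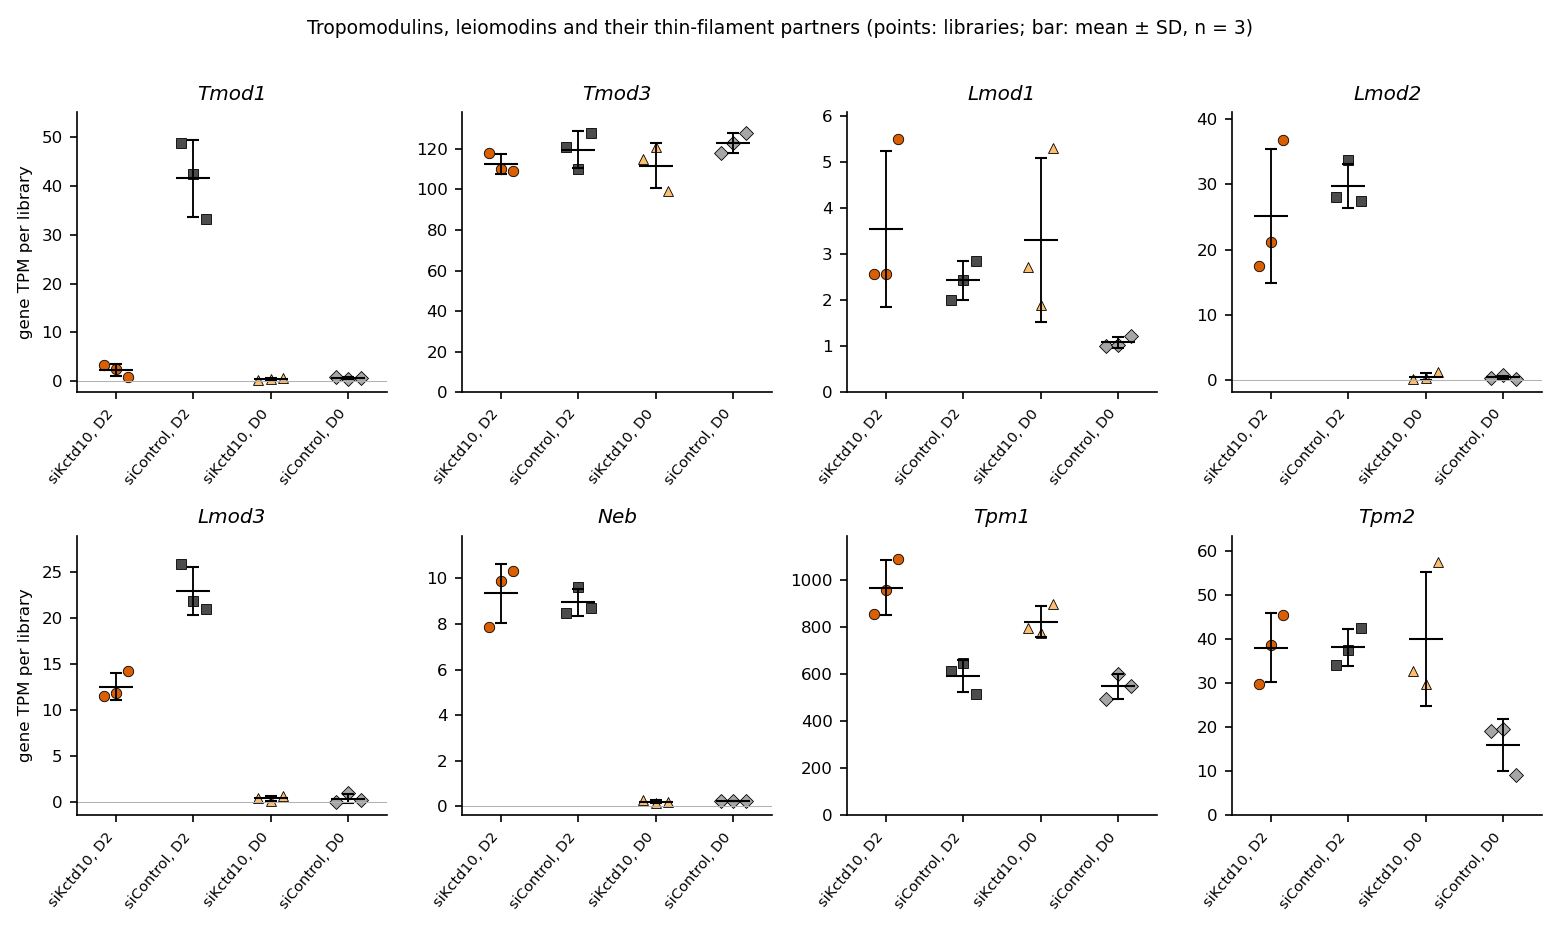
TPM of Tmod1, Tmod3, the leiomodins, nebulin and 2 tropomyosins in each library (points) by group (x axis), with mean and SD of 3 libraries; y axes are linear. Lmod2, Lmod3 and Neb are near 0 in both D0 groups and high in both D2 groups, whereas Tmod1 is high in the siControl group at D2 only, where it has 33.3 to 48.9 TPM.

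Regulators of capping protein were measured for 6 of 10 listed gene symbols. None was called between siKctd10 and siControl on either day by limma or voom, where limma called 4.75% of all genes at D2 and 2.45% at D0. An unadjusted p was under 0.05 for 2 at D2 and 1 at D0, against 19.2% and 15.8% of all genes (list median log2 fold change 0.33 at D2 and 0.05 at D0). Carmil1, which uncaps barbed ends, was the nearest (0.42 at D2, limma adjusted p = 0.0862), and Plekho1, which binds capping protein, had 0.36 at D2 and 0.62 at D0 (limma adjusted p of 0.399 and 0.192). C530008M17Rik had 0.47 at D2 (0.689). Cd2ap, an adaptor that binds capping protein, fell with differentiation in siControl cells (-0.53, limma adjusted p = 0.00713), and Sh3kbp1, its relative, fell in siKctd10 cells (-0.60, limma adjusted p = 0.0446). The Sh3kbp1 call was lost under 6 of 17 alternatives, with limma adjusted p of up to 0.199.

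Of the other gelsolin superfamily, 3 of 6 genes were measured and none was called between the siRNAs on either day by limma or voom, nor had an unadjusted p under 0.05 (list median 0.24 at D2 and 0.37 at D0). Of all genes, limma called 4.75% at D2 and 2.45% at D0, and 19.2% and 15.8% had an unadjusted p under 0.05. Supervillin (Svil), a membrane-bound member, rose with differentiation in siKctd10 cells (log2 fold change 1.34, limma adjusted p = 0.000602) and in siControl cells (1.47, 0.000328). Advillin (Avil) had log2 fold changes of -0.67 in siKctd10 cells and -0.98 in siControl cells, at a level of at most 1.51 TPM on average. It reached 1 TPM only at D0, so it passed the filter through that day and these values carry no test. Flightless (Flii) had 0.02 in siKctd10 cells and 0.43 in siControl cells (limma adjusted p of 0.968 and 0.341).

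Of the other barbed-end cappers, 5 of 7 were measured and none was called between the siRNAs on either day by limma or voom, nor had an unadjusted p under 0.05 (list median -0.42 at D2 and -0.07 at D0). The limma shares over all genes were 4.75% called at D2 and 2.45% at D0, and 19.2% and 15.8% by unadjusted p. Adducin 3 (Add3), which caps filaments of the spectrin skeleton, rose in siKctd10 cells (0.78, limma adjusted p = 0.0265) and in siControl cells (1.13, 0.00405) with differentiation. Its call in siKctd10 cells was lost under 6 of 17 alternatives, 5 of them without 1 library, with limma adjusted p of up to 0.0796. Eps8, a capper and bundler, fell in siKctd10 cells to 8.05 ± 1.15 TPM at D2, against 120 ± 4.05 TPM at D0 (-3.75, limma adjusted p = 0.0193); in siControl cells it had 38.2 ± 30.0 TPM at D2, against 79.5 ± 59.9 TPM at D0, with a spread as large as the difference (-1.11, limma adjusted p = 0.462). The siKctd10 call of Eps8 was lost without the second siKctd10 library at D2 (limma adjusted p = 0.0537). Add1, Add2 and Eps8l2, the others measured, were not called in any comparison.

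Formins and Ena/VASP proteins, which keep barbed ends growing, were measured for 15 of 16 genes. Between the siRNAs 1 of the 15 was called at D2 and none at D0, where 4.75% and 2.45% of all genes were called. Fhod3, a formin of striated muscle, had 24.6 ± 0.48 TPM in siKctd10 cells at D2, against 16.8 ± 0.16 TPM in siControl cells (0.52, limma adjusted p = 0.0244). That call was lost when any 1 of the 6 libraries was left out (limma adjusted p of 0.0639 to 0.0769), and from the longest exon alone the log2 fold change was 0.06. Enah had -0.73 at D2 and -1.07 at D0, values carried by the second siControl library, with 30.0 TPM at D2 and 15.9 TPM at D0, against 2.20 to 5.79 TPM in the other siControl libraries. Fmn1 had 0.45 and 0.49, not called, and Fmnl2 had 0.50 at D0 (limma adjusted p = 0.489). With differentiation 5 of the 15 rose in each arm (Diaph2, Fmnl3, Daam1, Daam2 and Fhod3), against 23.1% of all genes in siKctd10 and 21.4% in siControl cells. In siKctd10 cells the call was lost under 7 of 17 alternatives for Daam1 and under 6 each for Daam2 and Diaph2, and in siControl cells under 5 for Daam1. Diaph3 fell in siKctd10 cells (-1.17, limma adjusted p = 0.000219) and in siControl cells (-1.03, 0.00048), and Fhod1 fell in siKctd10 cells (-0.38, 0.0295), a call lost under 6 of 17 alternatives.

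Capping protein is also a subunit of dynactin, whose short filament is made of the actin-related proteins, and of the WASH complex. The 14 other subunits were all measured, and none was called between the siRNAs on either day by limma or voom (list median 0.10 on both days). Limma called 4.75% of all genes at D2 and 2.45% at D0. An unadjusted p was under 0.05 for 2 at D2 (Dctn1 and Washc2) and for none at D0, where 19.2% and 15.8% of all genes were. The largest sizes were those of Dctn3 (log2 fold change -1.04 at D2 and 1.28 at D0, limma adjusted p of 0.416 and 0.374). With differentiation 4 rose in siKctd10 cells (Dctn2, Dctn4, Washc1 and Washc2) and 1 in siControl cells (Washc1, log2 fold change 0.63, limma adjusted p = 0.00501), of 14 in each case, against 23.1% and 21.4% of all genes. The Dctn2 call was lost under 10 of 16 alternatives and the Washc2 call under 5 of 17. In siKctd10 cells Washc4 had 1.1, and in siControl cells Dctn3 had 1.62 and Actr1a -1.31, none called. None of the genes in these 6 lists had a called difference between the 2 days' siRNA effects, by limma or voom; 5 had an unadjusted p under 0.05 (Fhod1, Cd2ap, Dctn3, Lmod3 and Tpm2), of 52 measured, where 10.0% of all genes did.

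The genes whose pattern over the 12 libraries was most like that of Capza1 were, by Pearson's r on the log2(TPM + 1) scale among 9930 candidates, Dynlt1b (0.958), Mboat1 (0.957), Trib2 (0.947), Fgf5 (0.932) and Tubb3 (0.921). Mboat1, a membrane-bound acyltransferase, had 14.8 ± 2.71 TPM in siKctd10 cells and 31.7 ± 1.1 TPM in siControl cells at D2. Its D0 levels were 7.37 ± 1.36 TPM in siKctd10 cells and 42.8 ± 1.08 TPM in siControl cells. Dynlt1b, a dynein light chain, had 88.8 ± 2.50 TPM in siKctd10 cells and 111 ± 4.84 TPM in siControl cells at D2, a smaller change in the same direction.

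Most like Tmod1 were Cxcl13 (0.971), Mef2c (0.970), Krt80 (0.968), Scml4 (0.950) and Myf5 (0.949). Mef2c, a transcription factor of muscle genes, had 6.61 ± 2.54 TPM in siKctd10 cells and 20.7 ± 4.81 TPM in siControl cells at D2. At D0 it had 2.61 ± 0.23 TPM in siKctd10 cells and 3.57 ± 0.47 TPM in siControl cells. Cxcl13, a chemokine, had 11.7 ± 1.78 TPM in siKctd10 cells and 62.5 ± 3.83 TPM in siControl cells at D2, and 2.62 ± 0.53 and 4.49 ± 1.3 TPM at D0. These correlations are over libraries that form 4 groups, so they describe differences between the groups and carry no test. The order of the groups was not the same for every gene listed. In siControl cells Mboat1 was higher at D0 than at D2, unlike Capza1. At D0 Krt80 had 85.9 ± 4.01 TPM in siKctd10 cells and 78.2 ± 3.28 TPM in siControl cells, unlike Tmod1, which was lower in siKctd10 cells on average.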

How the data were processed

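RNA was sequenced from 12 C2C12 libraries in 4 groups of 3. The authors deposited 1 StringTie table per library that gives, for each transcript of a UCSC knownGene annotation of mm10, the TPM and the mean read coverage per base, and for each exon its coverage. Only annotated transcripts were quantified, per the file headers, which name StringTie 1.3.3b. Version 1.1.3 of that tool, with HISAT, SAMtools and DESeq2 and the mm10 build, is what the submitters' processing notes give. TPM is relative to each library's total and corrected for length, so it keeps no depth. The aligner's settings, the strandedness of counting and the treatment of reads with several places are not given in the sources used here.

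Deposited transcripts were assigned to genes of GENCODE vM21 (GRCm38, the same assembly as mm10) by identical introns (42608 of 63759) or by exon overlap on the same strand (13473), and 7678 were left out, which held 3.82 to 4.63% of the TPM. Gene TPM is the sum over its transcripts. Depth was estimated from deposited coverage and transcript length, at 12510887 to 18082111 read pairs per library.

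The 13076 genes with at least 1 TPM in at least 3 libraries were fitted on log2(TPM + 1) with limma 3.58.1 in R 4.3.3, over all 12 libraries with 1 mean per group (8 residual degrees of freedom, trended and robust variance). Tests are two-sided, with Benjamini-Hochberg adjustment over all 13076 genes and a threshold of 0.05. A fold change on this scale understates the change of low genes, and 666 of the genes fitted are at 0 in some library. Positions, transcript searches and figures used Python 3.11.15, pandas 2.3.3 and matplotlib 3.10.9. siRNA strands are those of the series' description, and sites were read from GENCODE vM21 transcripts.

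The 10 genes, the related lists and the markers were chosen with earlier results of these data known. All 10 genes are named. Genes of the 6 related lists are counted in full and named where called or, for the larger comparisons, among the 3 largest log2 fold changes of a list. The 5 genes most like Capza1 and Tmod1 were taken by Pearson's r among genes with a mean of at least 5 TPM. Left out of that ranking were the 10 genes, Kctd10, and genes named Gm with digits or with names ending in Rik. The exons of Gsn and the coverage of Neb, Capzb and Capg were looked at after their values were seen. Alternatives tried were the pseudocount, the filter, the scaling, the matching of transcripts, the block, the libraries fitted, leaving out each library, and the coverage of the longest exon, the last chosen after seeing the data.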

Additional observations from a re-analysis of the deposited data

How the results depend on the processing

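The limits of these values come from the deposited coverage, which is listed at 0 for most exons of up to 200 bases, and from 3 libraries per group. TPM gives no counting error. For Tmod1 and Twf2 the few estimated read pairs limit the low groups. All adjusted p-values in this section are from limma, and the coverage of the longest exon was an alternative chosen after seeing the data.

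Between siKctd10 and siControl, fitting only the groups compared gave 252 genes called at D2 and 72 at D0, where the fit over all groups gave 621 and 320. For the difference between the days' effects, 97 genes were called, against 62 with a pseudocount of 0.1, 167 with a pseudocount of 5, 42 with the replicate block and 155 from the longest exon. Leaving out 1 library at a time gave 315 to 415 genes at D2, 118 to 224 at D0 and 52 to 82 for the difference; for D2 over D0 it gave 4031 to 4347 in siKctd10 cells (4756 with all libraries) and 3938 to 4113 in siControl cells (4639). The other settings kept these counts within 1.5 times.

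The share of calls that were higher depended on the scaling. Without rescaling it was 59.6% at D2 and 60.6% at D0 for siKctd10 over siControl, and 63.5% in siKctd10 and 60.4% in siControl cells for D2 over D0. With median-ratio scaling these shares were 39.4, 47.6, 51.8 and 52.0%. With quantile normalization they were 46.6, 47.4, 50.4 and 49.0%. With voom they were 46.6, 43.5, 55.0 and 51.5%, and from the longest exon 39.1, 40.6, 54.8 and 51.5%. The median log2 fold change of all genes for D2 over D0 in siKctd10 cells was 0.12 without rescaling, 0.00 with median-ratio scaling, -0.02 with quantile normalization and 0.03 with voom.

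A change of sign was counted as a reversal where the value was called or moved by more than the SD between replicates. With median-ratio scaling, Twf1 at D2 was -0.043; for D2 over D0, Capza2 was -0.053 in siKctd10 and -0.094 in siControl cells, and Tmod3 was -0.119 in siKctd10 cells. With voom these 3 values for D2 over D0 were -0.019, -0.109 and -0.094. From the longest exon, siKctd10 over siControl gave -0.066 for Twf1 and 0.223 for Capg at D2, and -0.115 for Twf1 and -0.325 for Twf2 at D0. D2 over D0 gave -0.026 for Capza2 in siKctd10 cells, and -0.101 for Capza2, -0.736 for Capg, -4.272 for Gsn and -0.118 for Neb in siControl cells; the difference between the days' effects was 0.607 for Capg. The longest exon of Capg held at most 1.5% of the gene's covered bases in any library, so its values are near the floor. The cause of these reversals was not tested.

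Between siKctd10 and siControl, on which Capza1 and Tmod1 were chosen, their log2 fold changes kept their sign under every alternative tried. Capza1 for D2 over D0 in siControl cells, given without a test, ranged over -0.06 to 0.19. Capza1 ranged over -1.50 to -1.25 at D2 and -2.12 to -1.86 at D0, and Tmod1 over -4.42 to -2.68 at D2 and -0.69 to -0.06 at D0. The call of Twf2 for D2 over D0 in siKctd10 cells was lost with a pseudocount of 0.1 (adjusted p = 0.0512), with no filter (0.0570) and from the longest exon (0.217). Twf1 for D2 over D0 in siControl cells passed the threshold from the longest exon (-0.183, adjusted p = 0.0180). Of 68 called values of genes in the related lists and markers, 37 were called under every alternative, 31 lost the call under at least 1, and 1 of these changed sign (Neb, above). The 68 include values of Lmod2, Lmod3, Neb, Mymx, Ckm and Avil between the days, for which no test is given above.

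The replicate numbers were checked for pairing. The correlations between the deviations of libraries with the same number were -0.021 to 0.202, and in no comparison were all 3 above 0.1, so the numbers were not taken to pair the libraries. As a hint from the data, every library correlated best with its own number in the D0 comparison of the siRNAs and for D2 over D0 in siKctd10 cells. With the replicate block, 546 genes were called at D2, 319 at D0, 4707 for D2 over D0 in siKctd10 and 4624 in siControl cells. The block ended the calls of Tpm1 at D0 (adjusted p = 0.0541), Fhod3 at D2 (0.0533), and Daam1 (0.0538) and Dctn2 (0.0690) for D2 over D0 in siKctd10 cells. It ended no other call given above for the 10 genes, the lists or the markers.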
